A study of Mus musculus with 26 samples.

Results

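Labelled mRNA of 10 antioxidant and glutathione genes was followed through a chase in oligodendrocyte progenitor cells (OPCs) and in the oligodendrocytes (OLs) differentiated from them. The genes were taken by name: Nfe2l2, Keap1, Nqo1, Gclc, Gclm, Txnrd1, Srxn1, Sod1, Gpx4 and Msrb3. Each was found as 1 transcript, and together they made up 10 of the 10104 transcripts listed for either cell type. All 10 were among the 8530 transcripts of OPCs and 9 were among the 9751 of OLs, where Nqo1 was not listed. The same 9 genes were among the 8112 transcripts with a half-life in every replicate.

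All cultures were murine and of the 129S/SvEv background, and none carried an engineered allele. OPCs had been derived from epiblast stem cells made from male embryos, and they were kept in 20 ng/mL PDGFA and 20 ng/mL bFGF, which hold them in division. OLs had been given noggin and IGF-1 (100 ng/mL each), NT3 (10 ng/mL), cAMP (10 µM) and the thyroid hormone T3 (40 ng/mL) for 40 h before labelling. Both cell types then took up the uridine analogue 5-ethynyluridine for 24 h, the analogue was replaced by uridine, and the RNA that carried it was pulled down and sequenced after 0, 1, 2, 4 and 6 h of chase. There were 3 OPC replicates and 2 OL replicates with 5 libraries each. The OLs had come from the cells of a pair of the OPC replicates, whose numbers the sources do not give. A library made with no biotin, which would measure unlabelled RNA on the beads, was not analysed here.

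The transcription factor NRF2, encoded by Nfe2l2, is the main switch of the antioxidant response. In unstressed cells KEAP1 binds NRF2 and hands it to a CUL3 ubiquitin ligase for destruction. Oxidants modify KEAP1, and NRF2 then gathers in the nucleus, pairs with a small MAF protein and binds antioxidant response elements in the promoters of genes such as Nqo1, Gclc, Gclm, Txnrd1 and Srxn1. Glutathione, the chief thiol of the cell, is made from cysteine that is joined to glutamate by the enzyme of GCLC and GCLM. Oligodendrocytes are held to be sensitive to oxidants, as they are rich in iron and lipid and poor in glutathione.

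The core of the antioxidant response element, TGACNNNGC, was searched in the promoter windows of RefSeq (build GRCm38.p6), which run from 250 bases before a gene's start to 50 bases after it. Of the 9 genes with a window, 5 held the motif on 1 of the strands, against 16.8% of the 8089 listed genes that have a window and 12.4% of all 32851 windows. No window was given for Gclc. The 5 matches are printed because the response is known to run through this element. Each is printed on the gene's own strand with the motif in capitals, which reads GCNNNGTCA where the motif lies on the opposite strand.
Nfe2l2, chr2:75704885-75704913, reverse strand: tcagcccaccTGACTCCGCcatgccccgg
Gclm, chr3:122245413-122245441, forward strand: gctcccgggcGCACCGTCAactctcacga
Txnrd1, chr10:82859104-82859132, forward strand: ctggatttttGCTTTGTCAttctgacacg
Srxn1, chr2:152105542-152105570, forward strand: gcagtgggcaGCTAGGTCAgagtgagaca
Sod1, chr16:90220696-90220724, forward strand: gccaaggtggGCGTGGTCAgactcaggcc
The match of Srxn1 lies 28 bases past its start and thus inside the transcribed part, and the other 4 lie before the start. A match describes these letters and does not show a bound site.

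The libraries differed in ways that touch the values below. The markers of mature OLs Mbp, Cnp, Mog, Mag, Mobp, Myrf and Opalin summed to 2377 to 5264 FPKM (fragments counted per kilobase of transcript and unit of sequencing depth) at 0 h in OLs. In OPCs they summed to 37.6 to 55.1 FPKM, and 5 of these 7 genes were not listed there. The 5 OPC markers were listed in both cell types and summed to 198 to 327 FPKM in OPCs and to 536 to 558 FPKM in OLs, where Gpr17 alone gave 299 to 323. Pdgfra (11.5 to 26.5 FPKM in OPCs and 43.9 to 66.9 in OLs) and Lhfpl3 (12.1 to 20.4 and 27.6 to 35.2) were also higher in OLs. Cspg4 was lower there (35.7 to 55.7 and 29.9 to 30.7), and Ptprz1 overlapped (97.7 to 255 and 109 to 127). Astrocyte markers summed to 396 to 478 FPKM in OPCs and to 305 to 571 FPKM in OLs, with Aqp4 listed in neither and Gfap at 6.86 to 8.12 FPKM in OLs only. None of the 4 microglial and 2 pluripotency markers was listed in either cell type, and of the 3 neuronal markers only Tubb3 was. The number of reads behind a value is unknown, as the files hold FPKM and not counts. As these are bulk cultures, fewer cells of a type and less RNA per cell cannot be told apart.

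The first comparison asked whether OLs and OPCs began the chase with different levels of labelled mRNA. The 0 h values were read as not scaled to the spike-in RNA. Each is thus a level relative to its own library and not an amount per cell. The levels at 0 h spanned a wide range, with Sod1 at the top in all 5 replicates and Txnrd1 and Gpx4 next. None of the 9 genes passed the test at 0 h (limma on log2(FPKM + 1), Benjamini-Hochberg adjusted p under 0.05 over 8177 transcripts). An unadjusted p under 0.05 was found for 4 of them, and for 1632 of all transcripts as higher and 1875 as lower in OLs. Of all transcripts, 29.6% passed the adjusted threshold in either direction, 13.8% higher and 15.8% lower in OLs. A FPKM value is a level per length of transcript, so the genes can be set beside each other.

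**Figure D1:**
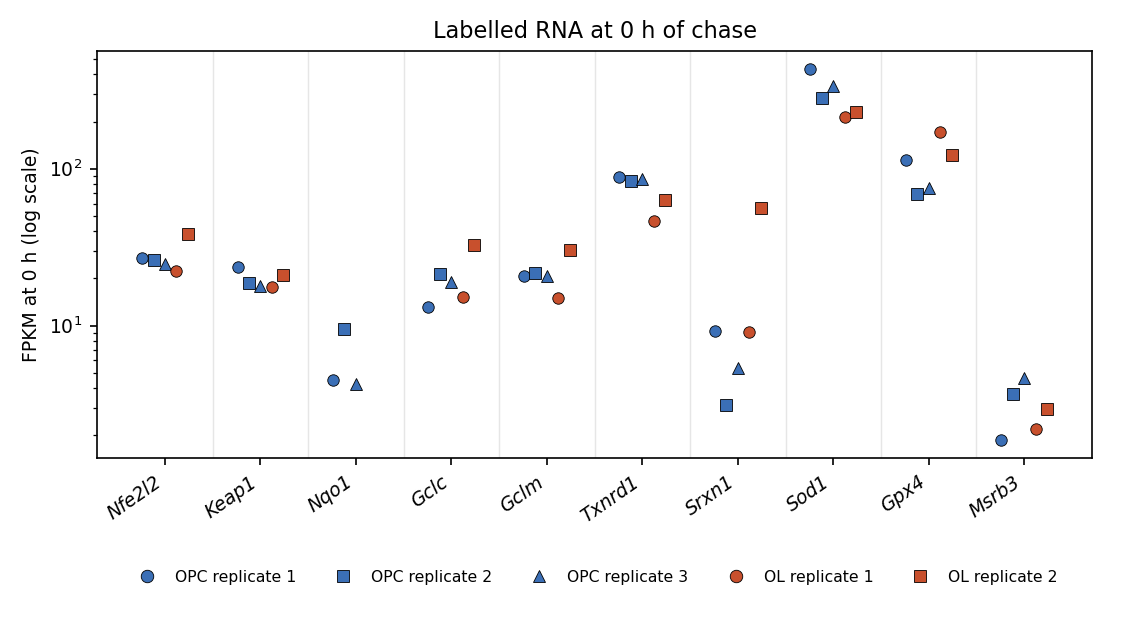
Level of labelled mRNA at 0 h of chase for the 10 genes, in FPKM on a log scale. Each point is 1 replicate, with OPCs in blue and OLs in red. Sod1 lies above all others, Nqo1 has no point for OLs, and the OL replicates of Srxn1 stand at 9.13 and 56.4 FPKM.

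Of the enzymes that act on oxidants directly, Sod1, the cytosolic superoxide dismutase, measured 430.5, 284 and 338 FPKM at 0 h in OPC replicates 1, 2 and 3. In OL replicates 1 and 2 it measured 213 and 230 FPKM. Both OL replicates lay below all OPC replicates, with a log2 change of -0.64 ± 0.24 (SE) and a limma adjusted p of 0.0823. Gpx4, the selenoenzyme that reduces lipid peroxides in membranes and so guards against ferroptosis, measured 114, 68.6 and 75.1 FPKM in OPCs and 171 and 123 FPKM in OLs. Both OL replicates lay above the OPC replicates (log2 change 0.78 ± 0.29, SE, limma adjusted p 0.0740). Txnrd1, the cytosolic thioredoxin reductase, measured 88.8, 84.1 and 86.5 FPKM in OPCs and 46.1 and 63.2 FPKM in OLs. Its OPC replicates lay close together, and both OL replicates lay below them (-0.67 ± 0.23, SE, limma adjusted p 0.0573). These were the 3 genes whose groups did not overlap at 0 h, 1 higher and 2 lower in OLs, where 28.0% of all transcripts were apart as higher and 31.4% as lower. Without OPC replicate 1 Gpx4 passed the test (1.00, adjusted p 0.0160), and without OPC replicate 2 Sod1 did (-0.78, adjusted p 0.0463).

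No change in the switch or its inhibitor was detected at 0 h. Nfe2l2 measured 26.9, 26.2 and 24.8 FPKM at 0 h in OPCs and 22.2 and 38.3 FPKM in OLs, which lay on either side of the OPCs (log2 change 0.16 ± 0.27, SE, limma adjusted p 0.667). Keap1 measured 23.8, 18.8 and 18.0 FPKM in OPCs and 17.6 and 21.0 FPKM in OLs, and its groups overlapped (-0.06 ± 0.23, SE, limma adjusted p 0.873). Without OL replicate 1 or without OPC replicate 1 the change of Keap1 was 0.07 and 0.06, and without OL replicate 2 that of Nfe2l2 was -0.21. Neither gene thus held a direction at 0 h.

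Gclc encodes the catalytic subunit and Gclm the modifier subunit of glutamate-cysteine ligase, which limits the rate of glutathione synthesis. Gclc measured 13.1, 21.4 and 19.0 FPKM at 0 h in OPCs, and 15.3 and 32.5 FPKM in OLs. Gclm measured 20.6, 21.8 and 20.7 FPKM in OPCs, and 14.9 and 30.2 FPKM in OLs. For both genes OL replicate 2 was the highest of the 5 libraries and OL replicate 1 lay low, so the change between cell types was no larger than the spread (0.34 ± 0.35 and 0.02 ± 0.30, SE, limma adjusted p 0.487 and 0.973). Without OL replicate 2 these changes were -0.18 and -0.47.

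Srxn1 encodes sulfiredoxin, which repairs peroxiredoxins whose cysteine has been over-oxidised. It measured 9.19, 3.12 and 5.37 FPKM in OPCs and 9.13 and 56.4 FPKM in OLs, so that 1 OL replicate stood within the OPC range and the other far above it (log2 change 1.90 ± 0.67, SE, limma adjusted p 0.0662). Without OL replicate 1 its change was 3.15 (adjusted p 0.0158), without OPC replicate 1 it was 2.24 (adjusted p 0.0275), without OL replicate 2 it was 0.65 (adjusted p 0.414), and with the replicate numbers as a block it was 1.90 (adjusted p 0.00868). Leaving out an OL replicate leaves 1 OL library at 0 h, and likewise 1 half-life, so the spread behind such a p comes from the OPC replicates and the lone OL value is assumed to vary as they do. The block rests on the numbers alone, since the sources do not say that they pair the cultures. Within it Srxn1 stood at 9.13 FPKM in OL replicate 1 against 9.19 in OPC replicate 1, and at 56.4 in OL replicate 2 against 3.12 in OPC replicate 2. OPC replicate 3 has no OL replicate of its number, so the p leans on variance shared across transcripts. Msrb3, which reduces oxidised methionine in proteins, was low in all libraries. It measured 1.88, 3.69 and 4.65 FPKM in OPCs and 2.20 and 2.95 FPKM in OLs, with overlapping groups (-0.26 ± 0.31, SE, limma adjusted p 0.561). Nqo1, a quinone reductase and a common readout of NRF2, measured 4.48, 9.56 and 4.27 FPKM in OPCs. Transcripts were left out of a table for a low level at 0 h or for values of 0 at 1 and 2 h. No OL value is listed for Nqo1, and which of these applied is not known.

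The OL replicates were further apart in NRF2-controlled genes than in most transcripts. The ratio of OL replicate 2 to OL replicate 1 at 0 h was 6.17 for Srxn1, 2.13 for Gclc, 2.02 for Gclm and 1.72 for Nfe2l2. It was 1.37 for Txnrd1, 1.34 for Msrb3, 1.19 for Keap1, 1.08 for Sod1 and 0.718 for Gpx4. Thus 8 of the 9 genes were higher in OL replicate 2 and 3 of them at least 2-fold, where 5559 of all 9751 transcripts were higher, 5.49% were at least 2-fold higher and 2.22% at least 2-fold lower, with a median ratio of 1.05. No test can be run on 1 library against 1. Between OPC replicates 1 gene of the 10, Nqo1, was at least 2-fold higher in replicate 2 than in replicate 1 and 1, Srxn1, at least 2-fold lower, where 12.3% and 2.78% of all transcripts were. In OPC replicate 3, 1 gene, Msrb3, was at least 2-fold higher than in replicate 1 and 0 were lower, where 6.32% and 2.1% of all transcripts were. Against replicate 2, 0 genes were at least 2-fold higher and 1, Nqo1, lower, where 1.18% and 2.6% were.

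Other NRF2 targets, from a wider list of 72 antioxidant genes of which 64 were listed, stood the same way. All 10 listed targets were higher in OL replicate 2, 6 of them at least 2-fold, with a median ratio of 2.15. The genes named here were picked after their ratios were seen. Hmox1, the heme oxygenase, measured 35.1 FPKM in OL replicate 1 and 272 FPKM in OL replicate 2, a ratio of 7.75. Osgin1, a growth inhibitor induced by oxidants, measured 1.21 and 17.3 FPKM, a ratio of 14.3, and Me1, the cytosolic malic enzyme that makes NADPH, measured 9.35 and 31.0 FPKM. Outside that group Prdx6, a peroxiredoxin, measured 104 and 469 FPKM, and the glutathione transferases Gsta4 and Gstm1 had ratios of 4.10 and 3.20. The 17 listed genes of glutathione use as a whole had a median ratio of 0.968, and the 4 listed of superoxide dismutase and catalase 0.934. The 15 thioredoxin and peroxiredoxin genes, Prdx6 among them, had a median ratio of 1.23, and 12 of them were higher in OL replicate 2.

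**Figure D2:**
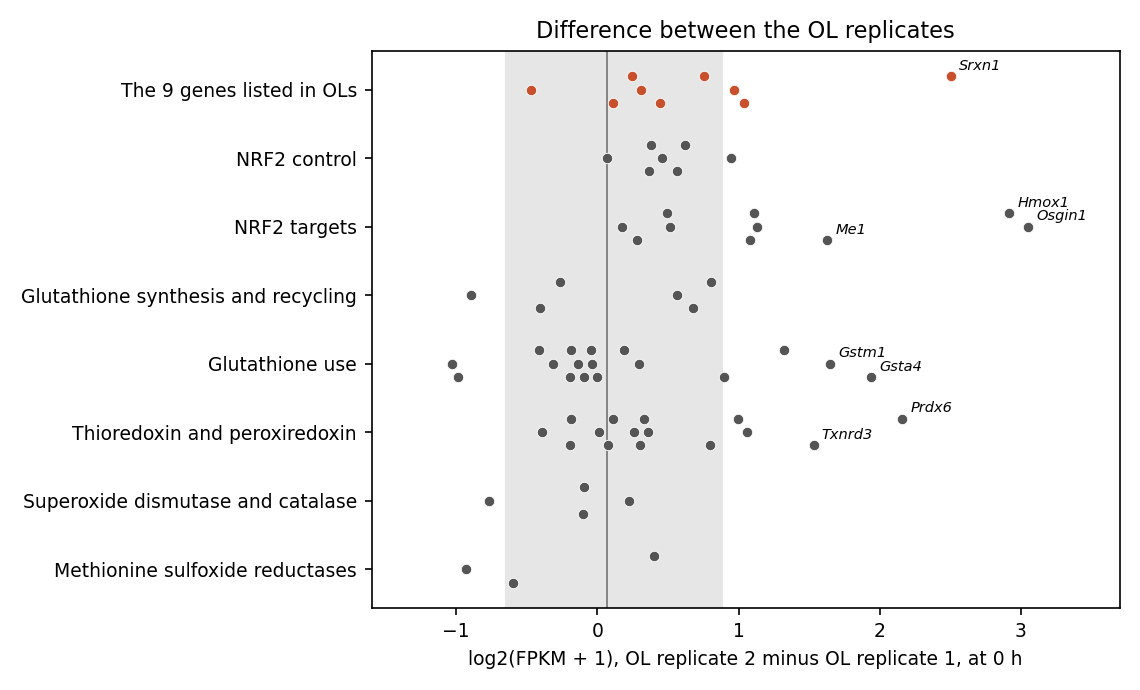
Difference in log2(FPKM + 1) at 0 h, OL replicate 2 minus OL replicate 1. Each point is 1 gene, with the 9 genes listed in OLs in red and the wider list in grey by group; the line is the median of all 9751 transcripts and the shaded band holds the central 90% of them, from -0.65 to 0.88. Srxn1 and the targets Hmox1 and Osgin1 lie furthest to the right.

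For Srxn1 and Hmox1, both among the furthest apart at 0 h, the gap lasted through the chase, and fewer of the other targets stood far apart at the later times. The ratio of OL replicate 2 to OL replicate 1 for Srxn1 was 6.17, 4.97, 4.37, 4.06 and 8.08 at 0, 1, 2, 4 and 6 h, where the median of all transcripts was 1.05, 1.60, 0.927, 1.01 and 1.14. For Hmox1 it was 7.75, 4.70, 5.22, 3.67 and 9.26. The 5 pairs of libraries thus gave the same order for this pair of genes, although libraries of 1 replicate share their culture. The median ratio of the 10 targets was 2.15, 2.51, 1.55, 1.17 and 1.78 at these times, with 9 of them having a ratio at 6 h, and 6, 2, 2, 2 and 1 of them were among the highest 5% of all transcripts. At 4 h that of Osgin1 was 3.04 and that of Me1 1.22. Markers of mature OLs summed to 5264 FPKM in OL replicate 1 and to 2377 FPKM in OL replicate 2, all 7 being listed. Astrocyte markers summed to 305 and 571 FPKM, with Gja1 at 40.1 and 188 FPKM, and the dividing-cell markers Mki67 and Top2a to 42.6 and 18.6 FPKM. The part of these differences in the NRF2-controlled genes was not tested.

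The chase itself asked how fast labelled mRNA of these genes was lost. In OPCs, 6 of the 10 genes fell and 2 rose (limma slope of log2(FPKM + 1) per h, adjusted p under 0.05 over all transcripts, 3 replicates), on a scale set by the spike-in RNA, where 81.7% of all transcripts fell and 4.31% rose. In OLs, 4 of 9 fell and 1 rose over 2 replicates, where 68.4% of all transcripts fell and 1.5% rose. These fits treat the libraries of a replicate as independent given its level. The median slope over all transcripts was -0.38 log2 units per h in OPCs and -0.20 in OLs. When each library was instead set to the 0 h median of its replicate, these medians became -0.02 and 0.01, so a slope below describes loss on the spike-in scale, and its place among all transcripts is given beside it.

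**Figure D3:**
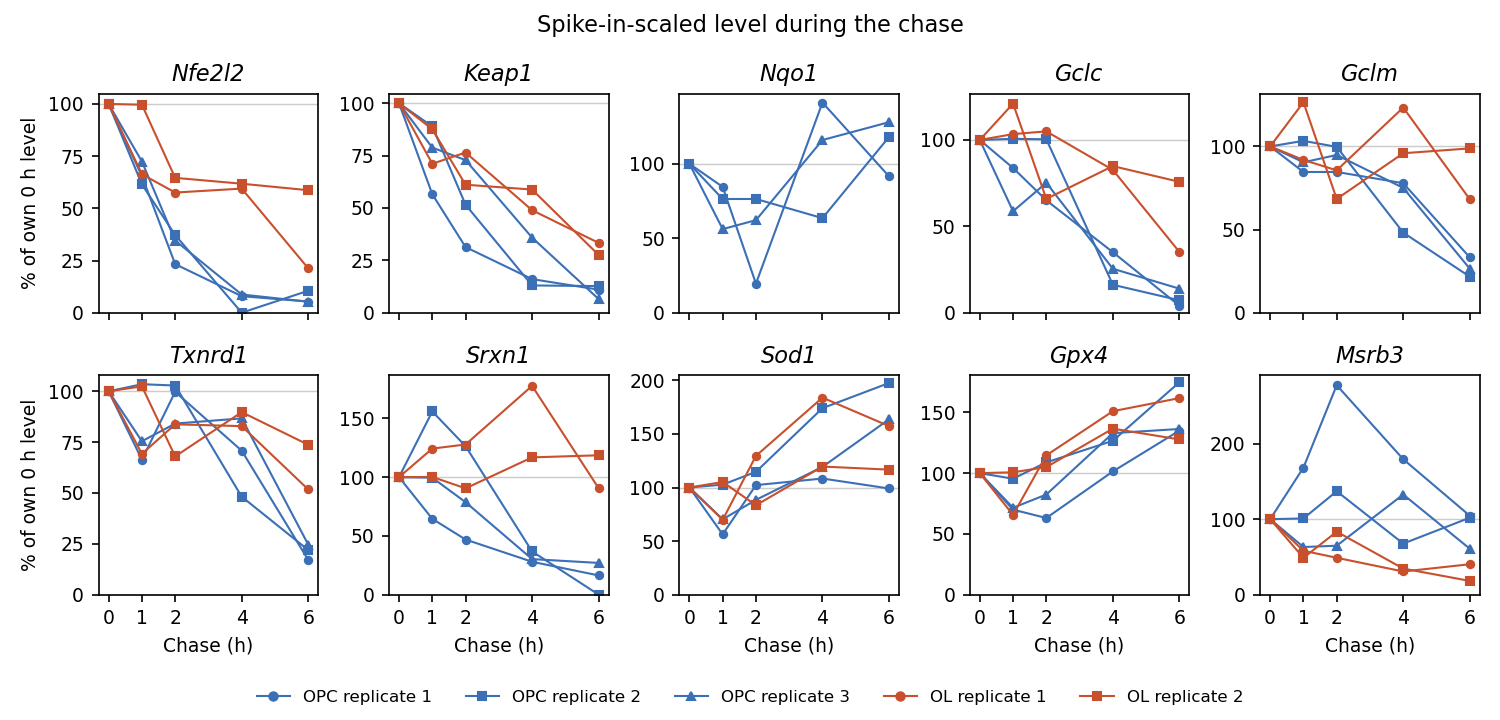
Spike-in-scaled level of each gene during the chase, as a percentage of the level at 0 h in the same replicate. Blue lines are OPC replicates and red lines OL replicates, the x axis is h of chase, and each panel has its own y axis from 0. Nfe2l2, Keap1 and Gclc end lower in all OPC replicates than in the OL replicates, and Sod1 and Gpx4 end near or above 100% in all 5.

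Nfe2l2 had the steepest slope and the shortest half-life of the 10 genes in each OPC replicate. At 2 h of chase 23.3%, 37.2% and 34.6% of the 0 h level was left in OPC replicates 1, 2 and 3, and at 6 h 5.35%, 10.5% and 5.27%, with OPC replicate 2 listed at 0 at 4 h. In OL replicates 1 and 2 it was 57.5% and 64.6% at 2 h and 21.2% and 58.7% at 6 h. Each OL value at 6 h was above all OPC values. The slope was -0.62 ± 0.08 log2 units per h (SE, limma adjusted p 2.21e-06) in OPCs and -0.21 ± 0.05 (SE, limma adjusted p 0.00171) in OLs. Of all OPC transcripts, 8.90% had a lower slope, and of all OL transcripts 48.8%. Without OL replicate 1 the slope in OLs was -0.13 (adjusted p 0.0644), and without the 6 h libraries its adjusted p was 0.0575. After each library was set to its replicate's 0 h median, the slopes were -0.25 (adjusted p 0.110) and 0.04 (adjusted p 0.491), so that the fall in OLs turned.

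The half-lives that the authors fitted to Nfe2l2 were 1.09, 1.40 and 1.3 h in OPCs (1.27 ± 0.158 h, SD, n = 3) and 2.68 and 5.76 h in OLs (4.22 ± 2.17 h, SD, n = 2). Only 12.8% to 13.2% of OPC transcripts had a shorter half-life in the same replicate, against 32.7% and 62.6% of OL transcripts. The transcript (chr2:75675513-75704641 of GRCm38, reverse strand, 5 exons) has a 3′ untranslated region (UTR) of 448 bases, where the median of all listed transcripts is 1096. It holds 1 copy of ATTTA, the pentamer of AU-rich elements that are known to bind mRNA decay factors, and 69.1% of all transcripts hold at least 1. Per kilobase this came to 2.23, above the density of 68.4% of all transcripts. Whether the copy bears on the half-life was not tested. The site is printed because Nfe2l2 is the least stable mRNA of the set in OPCs, with the pentamer in capitals.
Nfe2l2, chr2:75675704-75675708, reverse strand: tacagaacttATTTAtactgttctc

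Keap1 mRNA, which encodes the sensor that holds NRF2 down, declined nearer the middle of all transcripts than Nfe2l2 did in OPCs, but not in OLs. At 6 h 11.0%, 12.7% and 6.51% of the 0 h level was left in OPCs and 33.3% and 27.6% in OLs. The slope was -0.48 ± 0.05 log2 units per h (SE, limma adjusted p 1.07e-07) in OPCs and -0.24 ± 0.04 (SE, limma adjusted p 0.000104) in OLs, and after the change of scale -0.06 and -0.01, neither past the threshold. Of all transcripts, 29.9% had a lower slope in OPCs and 38.7% in OLs. Half-lives were 1.22, 2.02 and 2.70 h in OPCs, where 17.5%, 49.1% and 48.8% of transcripts had a shorter one, and 3.88 and 3.23 h in OLs, where 47.7% and 39.0% did. Its 3′ UTR of 971 bases (gene on chr9, transcript 21229731 to 21239071, reverse strand, 6 exons) held no ATTTA. An antisense gene, Gm16754, overlaps its 3′ end, and the sources do not say whether counting used strand.

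The ratio of FPKM between a pair of transcripts of the same library does not depend on the spike-in scale. That of Nfe2l2 to Keap1 went from 1.13, 1.40 and 1.38 at 0 h to 0.550, 1.15 and 1.12 at 6 h in OPCs, and from 1.26 and 1.82 to 0.805 and 3.87 in OLs. It was lower at 6 h than at 0 h in every OPC replicate and in OL replicate 1, and higher in OL replicate 2. This pair was chosen after the values were seen and is given with no test.

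The subunits of glutamate-cysteine ligase differed in their loss. Of Gclc, 4.05%, 7.19% and 13.9% of the 0 h level was left at 6 h in OPCs, and 35.2% and 75.8% in OLs. Of Gclm, 33.3%, 21.7% and 26.5% was left in OPCs, and 68.2% and 98.8% in OLs. In each replicate more was left of the modifier subunit than of the catalytic one. The slope of Gclc was -0.51 ± 0.05 log2 units per h (SE, limma adjusted p 2.16e-07) in OPCs and -0.15 ± 0.05 (SE, limma adjusted p 0.0192) in OLs. After the change of scale it was -0.12 and 0.10, neither past the threshold, so its fall in OLs turned. Of all transcripts, 25.1% had a lower slope in OPCs and 63.6% in OLs. Without OL replicate 1 the OL slope was -0.074 (adjusted p 0.336), and without the 6 h libraries its adjusted p was 0.376. The slope of Gclm was -0.28 ± 0.05 (SE, limma adjusted p 2.28e-05) in OPCs, less steep than the median of all transcripts, and turned to 0.20 (adjusted p 0.00102) after the change of scale. In OLs it was -0.03 ± 0.05 (SE, limma adjusted p 0.596), where 83.5% of all transcripts had a lower one, and it turned to 0.22 (adjusted p 0.000586).

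The ratio of Gclc to Gclm was compared in the same way. In OPC replicates 1, 2 and 3 this ratio of FPKM went from 0.635, 0.983 and 0.916 at 0 h to 0.0773, 0.327 and 0.481 at 6 h. In OL replicates 1 and 2 it went from 1.02 and 1.08 to 0.528 and 0.825. It was lower at 6 h than at 0 h in all 5 replicates. This pair too was chosen after the values were seen.

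Half-lives put Gclc below Gclm in the OPC replicates and gave no order in OLs. Gclc had 2.64, 1.96 and 2.11 h in OPCs (2.24 ± 0.360 h, SD, n = 3), and in OLs both replicates were at 6 h, the ceiling to which longer estimates were set. Gclm had 6, 3.79 and 6 h in OPCs and 6 h in both OL replicates. The 3′ UTR of Gclm (chr3, transcript 122245557 to 122270732, forward strand, 7 exons) has 4335 bases and 6 copies of ATTTA, and 94.3% of all transcripts have a shorter one. That of Gclc (chr9, transcript 77754535 to 77794485, forward strand, 16 exons) has 1234 bases and 4 copies. Per kilobase the copies came to 1.38 in Gclm and 3.24 in Gclc, with a median of 1.35 over all transcripts. The long non-coding gene Gm17494 overlaps the end of Gclm on the other strand.

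Srxn1 had the smallest adjusted p for the difference in slope among the 9 genes (0.000562, limma). In OPCs 16.3% and 27.0% of the 0 h level was left at 6 h in replicates 1 and 3, and OPC replicate 2 was listed at 0. In OLs 90.6% and 119% was left, so that no loss was detected over the chase. The slope was -0.33 ± 0.04 log2 units per h (SE, limma adjusted p 2.69e-06) in OPCs and 0.03 ± 0.05 (SE, limma adjusted p 0.633) in OLs. Of all transcripts, 57.5% had a lower slope in OPCs, so that of Srxn1 lay near the median there, and 90.5% had a lower one in OLs. After the change of scale these slopes were -0.06 (adjusted p 0.551) and 0.28 (adjusted p 0.000366). The half-lives were 2.18, 2.77 and 3.17 h in OPCs (2.71 ± 0.502 h, SD, n = 3) and at the ceiling of 6 h in both OL replicates. The OL replicates started at levels that were 6.17-fold apart and had slopes of -0.0006 and 0.05.

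Txnrd1 mRNA declined in OPCs over the hours in which the library medians dropped too. At 4 h 70.8%, 48.2% and 86.7% of the 0 h level was left in OPCs, and at 6 h 17.1%, 21.9% and 24.6%. The medians of all transcripts were 39.0%, 20.4% and 37.0% at 4 h and 14.4%, 11.0% and 17.7% at 6 h. In OLs 51.7% and 73.7% was left at 6 h. The slope in OPCs was -0.33 ± 0.06 log2 units per h (SE, limma adjusted p 4.23e-05), near the median of all transcripts, and it turned to 0.17 (adjusted p 0.0180) after the change of scale. In OLs it was -0.08 ± 0.04 (SE, limma adjusted p 0.10), less steep than that of 75.2% of all transcripts, also turning to 0.17 (adjusted p 0.000579). Without the 6 h libraries the call in OPCs was lost (-0.12, adjusted p 0.123). The 3′ UTR of Txnrd1 has 1667 bases and 4 copies of ATTTA, with an overlapping pair among them. Half-lives were 6, 3.79 and 6 h in OPCs and 6 h in both OL replicates. The fit thus put Txnrd1 at the ceiling in OPC replicates 1 and 3, where 17.1% and 24.6% was left at 6 h. A least-absolute-deviation fit of a single rate can pass over the last time point, so this half-life and the slope describe different stretches of the curve.

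No loss of Nqo1 mRNA was detected in OPCs. At 6 h 91.6%, 118% and 128% of the 0 h level was found, and all half-lives were at the ceiling. The slope was 0.07 ± 0.06 log2 units per h (SE, limma adjusted p 0.287), above that of 94.2% of OPC transcripts. Values of this low transcript moved widely between time points, as OPC replicate 1 stood at 19.5% at 2 h and at 141% at 4 h. The slope after the change of scale was 0.56 (adjusted p 8.17e-06).

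Sod1 and Gpx4 mRNA dipped early in the chase in some replicates and ended near or above their 0 h level. At 1 h Sod1 stood at 56.3%, 103% and 70.3% in OPCs and at 69.8% and 105% in OLs, and Gpx4 at 69.9%, 95.4% and 71.5% in OPCs and at 65.6% and 101% in OLs. The medians of all transcripts at 1 h were low in the same libraries, at 67.9%, 95.3% and 75.4% in OPCs and 64.0% and 95.5% in OLs. At 6 h Sod1 stood at 99.1%, 198% and 164% of its 0 h level in OPCs and at 157% and 117% in OLs. Gpx4 stood at 135%, 175% and 136% in OPCs and at 162% and 128% in OLs. Levels above 100% lie outside a single exponential decay, and their cause was not tested. In OPCs both rose, Sod1 by 0.13 ± 0.04 log2 units per h (SE, limma adjusted p 0.00758) and Gpx4 by 0.13 ± 0.04 (SE, limma adjusted p 0.00731), and after the change of scale by 0.65 and 0.64. In OLs Gpx4 rose by 0.12 ± 0.05 (SE, limma adjusted p 0.0250), and Sod1 had a slope of 0.11 ± 0.05 (SE, limma adjusted p 0.0575), which became 0.39 and 0.37, both past the threshold (adjusted p 3.54e-05 and 3.67e-05), after the change of scale. Without OPC replicate 2 neither call of OPCs held (adjusted p 0.0971 for Sod1 and 0.0591 for Gpx4), nor did that of Sod1 without OPC replicate 3 (0.0624), and that of Gpx4 in OLs was lost without either OL replicate (0.212 and 0.0694). Without the 6 h libraries the 3 calls were also lost (adjusted p 0.0858 for Sod1 and 0.250 for Gpx4 in OPCs, and 0.0887 for Gpx4 in OLs). Their slopes were above those of 97.7% to 98.7% of transcripts in both cell types, and all half-lives were at the ceiling.

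Both mRNAs are short. Sod1 (chr16:90220754-90226329, forward strand, 5 exons) has 641 bases with a 3′ UTR of 72, and Gpx4 (chr10:80053488-80056439, forward strand, 7 exons) has 959 bases with a 3′ UTR of 221. Neither 3′ UTR holds an ATTTA, and 3.32% and 11.8% of all transcripts have a shorter one. The end of Sod1 overlaps Scaf4 on the other strand. Gpx4 has a processed pseudogene, Gpx4-ps2, so that its reads could have been split.

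Gpx4 and Txnrd1 both encode selenoproteins, in which a TGA codon is read as selenocysteine, and 18 of the 10090 transcripts with a usable coding sequence hold such a codon. The codon and its neighbours are printed with TGA in capitals because the genes share this recoding but not their course in OPCs, where Gpx4 rose and Txnrd1 fell on the spike-in scale, although Txnrd1 rose after the change of scale.
Gpx4, codon 73 of 197 in exon 3, chr10:80054737-80054739, forward strand: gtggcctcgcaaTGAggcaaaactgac
Txnrd1, codon 498 of 499 in exon 14, chr10:82896037-82896039, forward strand: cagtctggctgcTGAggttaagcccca
In Txnrd1 the codon stands next to the last, and in Gpx4 it lies in the first part of the coding sequence.

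Msrb3 was the only one of the 9 genes with a shorter half-life in OLs than in OPCs. At 6 h 105%, 102% and 60.8% of the 0 h level was found in OPCs and 40.3% and 18.2% in OLs. The slope was -0.02 ± 0.05 log2 units per h (SE, limma adjusted p 0.673) in OPCs and -0.16 ± 0.05 (SE, limma adjusted p 0.00579) in OLs, and after the change of scale 0.43 (adjusted p 1.12e-05) and -0.02 (adjusted p 0.773). Of all transcripts, 88.1% had a lower slope in OPCs and 60.2% in OLs. Without OL replicate 2 the OL slope was -0.12 (adjusted p 0.219). OPC replicate 1 reached 278% of its 0 h level at 2 h, from a start of 1.88 FPKM. The half-life was at the ceiling of 6 h in all OPC replicates and was 2.35 and 2.61 h in OLs (2.48 ± 0.186 h, SD, n = 2). The transcript (chr10:120781096-120899101, reverse strand, 7 exons) has a 3′ UTR of 2972 bases with 5 copies of ATTTA.

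**Figure D4:**
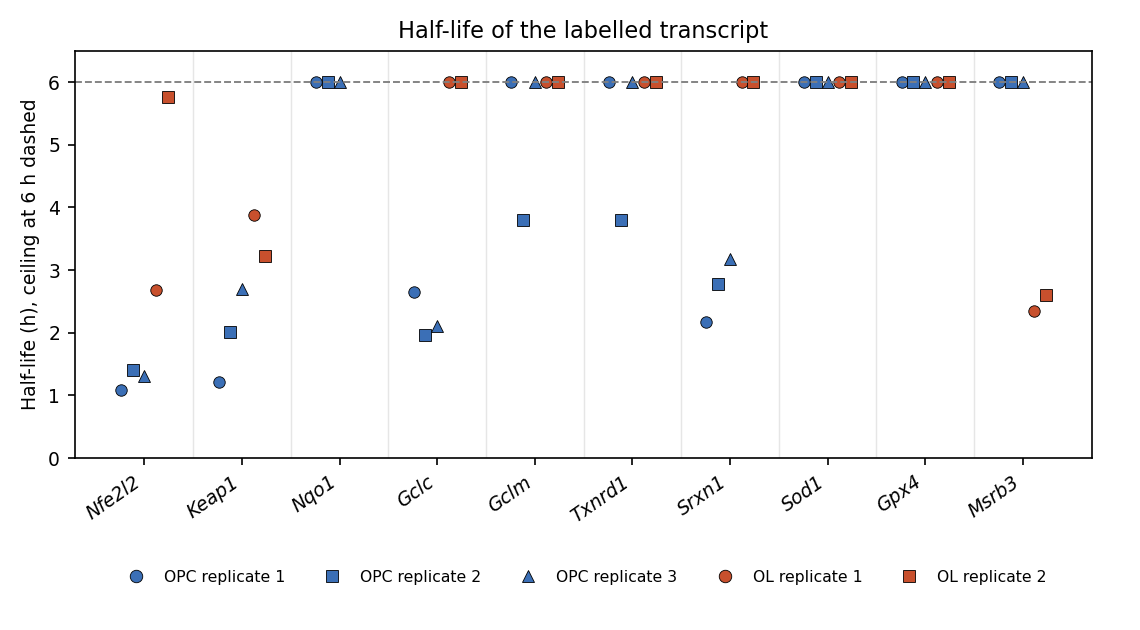
Half-life in h of the 10 genes as deposited by the authors, with 1 point for each replicate (OPCs blue, OLs red). The dashed line marks the ceiling of 6 h. Nfe2l2, Keap1, Gclc and Srxn1 have all OL points above all OPC points, and Msrb3 has them below.

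Whether half-lives differed between the cell types was tested with limma on log2 half-life. Of the 9 genes, Gclc passed the test as longer and Msrb3 as shorter in OLs, where 3.39% of all 8112 transcripts passed as longer and 0.148% as shorter. An unadjusted p under 0.05 was found for 4 of the 9, and for 1801 of all transcripts as longer and 65 as shorter. The change was 1.44 ± 0.16 log2 units for Gclc (SE, adjusted p 0.0467), and -1.28 ± 0.05 for Msrb3 (SE, adjusted p 0.0117). In each case all replicates of 1 group were at the ceiling of 6 h, which sets the SD of that group to 0. The size, the SE and the adjusted p of both changes thus depend on the ceiling. OL replicate 1 had 35.2% of Gclc left at 6 h although its half-life was at the ceiling. The change was 1.64 ± 0.40 for Nfe2l2 (SE, limma adjusted p 0.136), 1.17 ± 0.19 for Srxn1 (SE, limma adjusted p 0.0782) and 0.91 ± 0.41 for Keap1 (SE, limma adjusted p 0.328). Their OL replicates all lay above their OPC replicates. With each replicate centred on its median half-life these changes were 0.74, 0.26 and 0.01 (adjusted p 0.199, 0.545 and 0.983), and that of Nfe2l2 was 2.19 without OL replicate 1 and 1.09 without OL replicate 2. In all, 4 genes lay apart as longer and 1 as shorter in OLs, where 35.9% of all transcripts were apart as longer and 2.01% as shorter. With 3 replicates against 2 an exact permutation test of a single gene cannot give a p below 0.1. The median change was 0.22 log2 units over the 9 genes and 0.37 over all transcripts.

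Both calls were fragile. The call of Gclc held when libraries were set to 1 mean decay curve (1.04, adjusted p 0.0358) and without OPC replicate 1 (1.56, adjusted p 0.0249). It was lost in the other 8 alternatives, with a change of 0.53 (adjusted p 0.224) once each replicate was centred on its median half-life, of 0.85 (adjusted p 0.706) without the 6 h libraries and of 1.40 (adjusted p 0.234) with the replicate block, and without OL replicate 1, OL replicate 2, OPC replicate 2 or OPC replicate 3 its change was 1.44, 1.44, 1.35 and 1.40, close to that over all replicates, with adjusted p of 0.165, 0.164, 0.106 and 0.119. The call of Msrb3 held in 4 of 10 alternatives and was lost, among others, without OPC replicate 1 (-1.28, adjusted p 0.0524), without OPC replicate 2 (-1.28, adjusted p 0.0520) and with the replicate block (-1.28, adjusted p 0.162).

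A ceiling cannot act on slopes, so the difference between cell types was also tested on these. Of the 9 genes 6 had a higher slope in OLs, here a less steep fall or none, and 0 a lower one (limma, cell type by time over 25 libraries, adjusted p under 0.05), where 32.1% of all 8177 transcripts were called as higher and 0.391% as lower. The median difference over all transcripts was 0.14 log2 units per h, and -0.03 after each library was set to its 0 h median. The 6 genes were those of NRF2, its inhibitor, glutathione synthesis, thioredoxin reductase and sulfiredoxin.

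**Figure D5:**
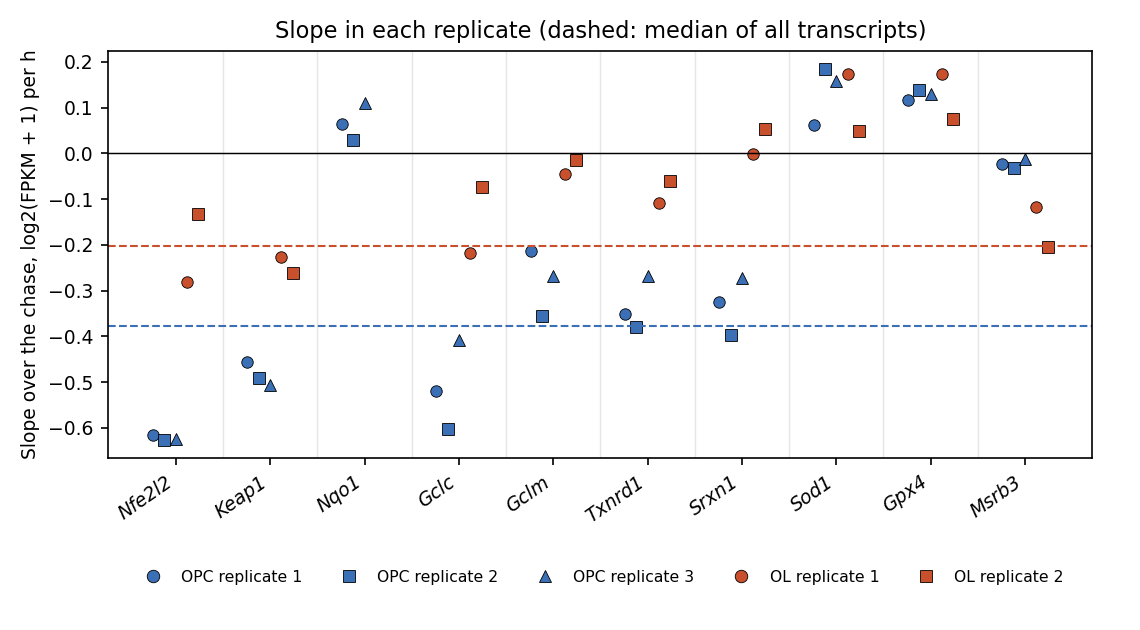
Slope of log2(FPKM + 1) per h of chase for each gene and replicate on the spike-in scale, with OPCs in blue and OLs in red. Dashed lines are the medians of all transcripts, at -0.38 in OPCs and -0.20 in OLs. On this scale the OL points of Nfe2l2, Keap1, Gclc, Gclm, Txnrd1 and Srxn1 lie above their OPC points; after each library is set to its 0 h median the difference of Txnrd1 is -0.01, those of Gclc and Srxn1 alone pass above 0, and those of Sod1, Gpx4 and Msrb3 pass below 0.

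The slope of Nfe2l2 was -0.62, -0.63 and -0.63 log2 units per h in OPCs and -0.28 and -0.13 in OLs. The difference was 0.42 ± 0.11 (SE, limma adjusted p 0.00694), above that of 94.8% of transcripts. The slope of Gclc was -0.52, -0.60 and -0.41 in OPCs and -0.22 and -0.07 in OLs, a difference of 0.36 ± 0.08 (SE, limma adjusted p 0.00174). That of Srxn1 was -0.33, -0.40 and -0.27 in OPCs and -0.0006 and 0.05 in OLs, also a difference of 0.36, with an SE of 0.06 and an adjusted p of 0.000562. For these 3 genes the difference was more than 2-fold the median of all transcripts.

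The other 3 calls lay closer to that median. The slope of Keap1 was -0.46, -0.49 and -0.51 in OPCs and -0.23 and -0.26 in OLs, a difference of 0.24 ± 0.06 (SE, limma adjusted p 0.00686). The slope of Gclm was -0.21, -0.35 and -0.27 in OPCs and -0.04 and -0.02 in OLs, a difference of 0.25 ± 0.07 (SE, limma adjusted p 0.00753). That of Txnrd1 was -0.35, -0.38 and -0.27 in OPCs and -0.11 and -0.06 in OLs, a difference of 0.25 ± 0.08 (SE, limma adjusted p 0.0197). All OL slopes of these genes lay above their OPC slopes. In all, 6 genes lay apart as higher in OLs and 1, Msrb3, as lower, where 50.9% and 3.27% of all transcripts did.

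After each library was set to its 0 h median, Srxn1 (0.33, adjusted p 0.0238) and Gclc (0.20, adjusted p 0.0314) still passed with a higher slope in OLs, where that of Srxn1 was upward on this scale. Nfe2l2 (0.28, adjusted p 0.220), Keap1 (0.04, adjusted p 0.667), Gclm (0.01, adjusted p 0.910) and Txnrd1 (-0.01, adjusted p 0.940) did not. The call of Srxn1 held in all 9 alternatives, with adjusted p from 0.000449 to 0.0245, and it was the only one of the 6 to do so. Without OL replicate 1 there were 3 calls among the 9 genes, those of Nfe2l2, Gclc and Srxn1, and without OL replicate 2 there was 1, that of Srxn1. That of Txnrd1 was also lost without OPC replicate 2 (adjusted p 0.0683). Without the 6 h libraries those of Gclm (0.15, adjusted p 0.276) and Txnrd1 (0.08, adjusted p 0.631) were lost.

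For Sod1 and Gpx4 no difference in slope was detected on the spike-in scale. The difference was -0.02 ± 0.07 log2 units per h for Sod1 (SE, limma adjusted p 0.815) and -0.00 ± 0.06 for Gpx4 (SE, limma adjusted p 0.973). Both lay below the median difference of all transcripts, and after the change of scale both passed the test as less upward in OLs, with differences of -0.29 (adjusted p 0.00774) and -0.27 (adjusted p 0.00680). For Msrb3 the difference was -0.14 ± 0.07 (SE, limma adjusted p 0.133), below that of all but 1.04% of transcripts. It was -0.24 (adjusted p 0.0426) with a pseudocount of 0.1 FPKM and -0.45 (adjusted p 0.000491) after the change of scale.

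The wider list was set beside these genes. At 0 h 8 of its 53 tested genes were higher and 3 lower in OLs, where 13.8% of all transcripts were higher and 15.8% lower, with a median change of -0.19 log2 units against -0.01 over all transcripts. Of the genes that control NRF2, Sqstm1, which draws KEAP1 into autophagy, and Bach1, a repressor at the same promoter element, were higher in OLs (1.06 ± 0.27, SE, limma adjusted p 0.0236, and 0.98 ± 0.21, SE, limma adjusted p 0.0112). Of the targets, Hmox1 (2.73 ± 0.71, SE, limma adjusted p 0.0243) and Slc7a11, the cystine carrier that feeds glutathione synthesis (1.09 ± 0.27, SE, limma adjusted p 0.0200), were higher, and without OL replicate 2 the change of Hmox1 was 1.27 (adjusted p 0.0643). In the thioredoxin group Txn1, the cytosolic thioredoxin that TXNRD1 recharges, measured 399, 316 and 380 FPKM in OPCs and 78.4 and 96.8 FPKM in OLs. Its change of -2.05 ± 0.23 (SE, limma adjusted p 0.000634) was in the direction of that of Txnrd1, which did not pass. Prdx4, a peroxiredoxin of the endoplasmic reticulum, was lower (-1.49 ± 0.22, SE, limma adjusted p 0.00223), and Txnip, which binds and inhibits thioredoxin, was higher (1.20 ± 0.22, SE, limma adjusted p 0.00641). Catalase, Cat, was higher (0.97 ± 0.21, SE, limma adjusted p 0.0119), and Msra, which reduces the other stereoisomer of methionine sulfoxide than Msrb3, was lower (-1.27 ± 0.34, SE, limma adjusted p 0.0259). Of these 9 calls, those of Txn1, Prdx4 and Txnip held whichever replicate was left out, with the spread taken from OPCs alone where 1 OL library remained. Those of Sqstm1, Bach1, Slc7a11, Cat and Msra were each lost without OL replicate 1 and without OL replicate 2, and all of these but Msra also without OPC replicate 3, with adjusted p from 0.0525 to 0.177. That of Hmox1 was lost without OL replicate 2, OPC replicate 2 (adjusted p 0.0505) or OPC replicate 3 (adjusted p 0.0605).

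In the chase 22 of 55 genes of the wider list fell in OPCs and 12 rose, and in OLs 18 of 62 fell and 9 rose, on the spike-in scale, where 81.7% of all transcripts fell and 4.31% rose in OPCs and 68.4% and 1.5% in OLs. Their median slopes were -0.04 and -0.01 log2 units per h, where those of all transcripts were -0.38 and -0.20. Among the 15 genes of glutathione use tested in OPCs, 5 rose and 1 fell. All 6 genes of NRF2 control fell, as did most transcripts. The slope differed between cell types for 14 of 53 genes, all of them with a higher slope in OLs, with a median difference of 0.03 against 0.14 over all transcripts, where 32.1% of all transcripts were called as higher and 0.391% as lower, so the list's share lay below the background. They included Hmox1 (0.59 ± 0.11, SE, limma adjusted p 0.000919), Slc3a2, the partner chain of Slc7a11 (0.45 ± 0.07, SE, limma adjusted p 0.000310), Maff, a small MAF protein that pairs with NRF2 (0.48 ± 0.11, SE, limma adjusted p 0.00201), Sesn2, a sestrin of the stress response (0.48 ± 0.08, SE, limma adjusted p 0.000337), and Gss, which adds glycine in the last step of glutathione synthesis (0.38 ± 0.13, SE, limma adjusted p 0.0272). The call of Gss was lost without OL replicate 1 (adjusted p 0.0517), OL replicate 2 (0.362) or OPC replicate 2 (0.0736), and those of the other 4 held whichever replicate was left out. By half-life 0 of 49 genes passed the limma test, where 3.39% of all transcripts passed as longer and 0.148% as shorter. An unadjusted p under 0.05 was found for 5 of the 49, all longer in OLs, and for 1801 of all 8112 transcripts as longer and 65 as shorter. The list was written with earlier results of these data known.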

How the data were processed

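Labelled RNA from 25 libraries (3 OPC and 2 OL replicates at 5 chase times each) of 26 samples was used. The authors aligned reads to GRCm38 with HISAT2 2.1.0, quantified canonical coding transcripts with StringTie 1.3.5 and ballgown, filtered them for a level of at least 1 FPKM at 0 h and on values of 0 at 1 and 2 h, and normalized FPKM to the reads of labelled spike-in RNA. From their decimals, the deposited FPKM values of 0 h were read here as unscaled and the later ones as scaled by 1 factor a library. The deposited half-lives, in h, were fitted by the authors per replicate by least absolute deviations with a ceiling of 6 h, and they were used with that ceiling set to exactly 6 h. A scale error in a library moves the slopes of its replicate in the same direction, and least for low transcripts, as 1 FPKM was added before the log. Half-lives can stay unmoved, as at the ceiling.

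Groups were taken from the labels. Half-lives (log2), 0 h levels and chase slopes, both log2(FPKM + 1), were fitted across all transcripts with limma 3.58.1 (R 4.3.3), two-sided, with Benjamini-Hochberg adjustment and a threshold of 0.05, and with replicate as a factor for slopes. The code was tested on simulated data. The depth is unknown, so no counting error is given. All 10 genes were named in every comparison, and from the wider list at most the 3 called genes with the largest change in a group and comparison, except for the comparison of single OL libraries. The genes and lists were chosen with earlier results of these data known. The paper calls the replicates biologically independent but does not say how the cultures of a cell type were separated. The p-values of half-lives and 0 h levels thus measure the spread between these samples. Those of slopes measure the scatter of single libraries about a shared slope, as libraries of a replicate were treated as independent given its level. Whether same-numbered replicates are paired was checked by the correlation of their deviations, which was -0.0016 and -0.105 for half-lives and 0.059 and 0.010 for 0 h levels. Alternatives were another pseudocount (0.1 FPKM), a mean of at least 5 FPKM, other scalings, no 6 h libraries, a variance trend, the replicate block and each replicate left out. Coordinates, exons, UTRs and coding sequences came from GENCODE vM21 (GRCm38), and promoter sequences from RefSeq (GRCm38.p6). One marker gene is not reported here and was left out of the marker sums.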

Additional observations from a re-analysis of the deposited data

Results flagged for a closer look

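For 6 of the 9 genes the slope over the chase differed between OLs and OPCs by a test of the difference itself, the limma term for cell type by time over 25 libraries. That test treats the libraries of a replicate as independent given its level, and so does not measure the spread of slopes between cultures. The difference, OL minus OPC in log2 units per h, was 0.42 for Nfe2l2, 0.24 for Keap1, 0.36 for Gclc, 0.25 for Gclm, 0.25 for Txnrd1 and 0.36 for Srxn1. For each of them the OL replicates all lay above the OPC replicates, where 50.9% of all transcripts did. After each library was set to its 0 h median, the differences of Gclc and Srxn1 still passed the test and the other 4 did not, with that of Txnrd1 at -0.01.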

How the results depend on the processing

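The depth of the libraries is unknown, and with 2 OL replicates each count below leans on single libraries. The number of transcripts that passed by half-life was 287 in all. It became 1 with replicates centred on their medians, 30 without the 6 h libraries, 0 with the replicate block (limma, where 1801 longer and 65 shorter had an unadjusted p under 0.05 without the block), 0 with a variance trend, 91 longer and 193 shorter on a mean decay curve, and 167 to 236 with a replicate left out. Of the 9 genes, 2 passed, and this became 0 with centring, without the 6 h libraries, with the block and with the trend, and 0 to 1 with a replicate left out. At 0 h 2421 transcripts passed, and 896 to 2605 with a replicate left out. Of the 9 genes 0 passed, and 2 with centring, 1 with the block (Srxn1), 4 with the trend, and 0 to 2 with a replicate left out. By slope 8 genes passed in OPCs (5 without the 6 h libraries) and 5 in OLs (2 without the 6 h libraries, 3 with no replicate block, and 2 to 3 with a replicate left out). The slope difference had 2655 calls, 1622 without the 6 h libraries and 746 to 2722 with a replicate left out, and 6 of the 9 genes passed, 1 to 6 with a replicate left out. Setting libraries to their 0 h median gave 2904 rising and 2166 falling transcripts in OPCs, 2963 and 1962 in OLs, and 843 higher and 1945 lower slopes in OLs. Of the 399 values of single genes under alternatives, 305 kept their direction and call, 50 lost a call, 18 gained one and 26 turned.

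The values that turned were, for half-life, -0.68 for Txnrd1 and for Gclm with centring, and -0.19 for Txnrd1 on the mean decay curve. For the 0 h level, -0.014 for Gclm with centring turned. With a replicate left out the 0 h change ran from -0.47 to 0.50 for Gclm, from -0.18 to 0.86 for Gclc, from -0.21 to 0.54 for Nfe2l2, each lowest without OL replicate 2, and from -0.18 to 0.066 for Keap1. For slopes after setting libraries to the 0 h median the values were 0.17 for Txnrd1, 0.20 for Gclm and 0.43 for Msrb3 in OPCs, 0.17 for Txnrd1, 0.22 for Gclm, 0.10 for Gclc and 0.037 for Nfe2l2 in OLs, and for the difference -0.0086 for Txnrd1 and -0.081 for Cat. Without the 6 h libraries they were 0.054 for Msrb3 in OPCs, 0.0095 for Gclm in OLs, and 0.029 for Sod1 and 0.075 for Gpx4 for the difference. With a replicate left out the OL slope of Srxn1 ran from -0.00061 to 0.052, and the difference from -0.085 to 0.040 for Sod1 and from -0.052 to 0.045 for Gpx4. The cause was not tested. The replicate numbers are not said to pair the cultures, and their deviations did not move together.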

Other observations

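Within OPCs most antioxidant groups, NRF2 targets among them, were lower in replicate 2 than in replicate 1 at 0 h. Of the 10 targets listed there, 1 was higher in OPC replicate 2 than in OPC replicate 1, with a median ratio of 0.638, where the median over all 8530 transcripts was 0.992. In OPC replicate 3, 9 of the 10 were higher than in OPC replicate 2, with a median ratio of 1.31, and none was at least 2-fold higher. Of all 8530 transcripts 4169 were higher there, with a median ratio of 0.993, and 1.18% were at least 2-fold higher. The median ratio of OPC replicate 2 to OPC replicate 1 was 0.80 over the 15 genes of the thioredoxin group, 0.769 over the 15 of glutathione use, 0.728 over the 5 of superoxide dismutase and catalase, 0.559 over the 2 of glutathione synthesis and recycling, 0.547 over the 2 methionine sulfoxide reductases and 0.981 over the 6 of NRF2 control. The dividing-cell markers Mki67 and Top2a summed to 42.1, 171 and 112 FPKM in OPC replicates 1, 2 and 3, and the OPC markers to 198, 327 and 252 FPKM. Their part in these ratios was not tested.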
